A study of Mus musculus with 12 samples.

Results

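To determine which small RNAs differed between cells that lacked both Dicer and Dnmt1 and cells that lacked Dnmt1 alone, 4 Dicer/Dnmt1 KO libraries were compared with 2 Dnmt1 KO libraries of mouse embryonic stem cells (ESCs), the pluripotent cells of the early embryo grown in culture. These 6 libraries were chosen by their genotype labels from the 12 small RNA-seq libraries of the series. The remaining 6 are wild type and entered the filter for tested features, the scaling of the libraries and the shared estimate of the spread. The genotypes are written Dnmt1 -/- for libraries A and B, and Dicer/Dnmt1 -/- for libraries 1A, 1B, 2A and 2B, so the Dnmt1 deletion is common to both groups and the labels set them apart by Dicer alone. All libraries carry the strain label E14, and the labels give no treatment, time after deletion or age. According to the study's methods, knockout lines were grown from single cell colonies after genome editing, Dnmt1 was deleted by a Cre recombinase switched on with tamoxifen, and Dicer was deleted either together with Dnmt1 by Cre or permanently beforehand. The labels do not say which of these lines gave these libraries, and the methods describe the Dnmt1 line as coming from another strain than E14. A and B may be separate cultures or repeat libraries of 1 RNA, which the labels do not settle, so p-values measure only the spread between these libraries, which may be technical.

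Dicer is the ribonuclease that cuts the hairpin precursors of microRNAs (miRNAs) into short duplexes, after Drosha and Dgcr8 have released most of those precursors from longer transcripts. One strand of the duplex is loaded into an Argonaute protein, and its seed, bases 2 to 8 of the mature miRNA, pairs with target mRNAs. ESCs are known for a small set of abundant miRNA clusters, the Mir290 and Mir302 clusters and the Mir17-92 cluster with its paralogues, which share seeds and promote rapid division. Small nucleolar RNAs (snoRNAs), which guide chemical modification of ribosomal RNA, are made without Dicer and are described beside the miRNAs. The main fit was not scaled to them. Reads had been filtered to the lengths of Dicer products, so snoRNA counts are counts of short fragments. Dnmt1 copies DNA methylation to the new strand at replication.

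Depth was low and uneven. The Dnmt1 KO libraries held 67678 and 107607 reads and the Dicer/Dnmt1 KO libraries 24491, 8710, 63428 and 150701, so a count of 0 in all 4 Dicer/Dnmt1 KO libraries allows a mean level of up to 133.5 RPM (reads scaled to the reads of the library, as the deposited table does), against 36.1 RPM in Dnmt1 KO. This limit (3 reads per library) covers counting error only. RPM is not corrected for feature length, so levels are compared between libraries and not between genes. Of 32101 annotated features in the table, 21636 lacked a read throughout the 6 libraries. The targeted gene itself could not be checked at this depth, since Dicer1 had 0 and 1 reads in Dnmt1 KO against 0, 0, 0 and 1 in Dicer/Dnmt1 KO. Among the pluripotency genes used as ESC markers, 7 of 7 had a read, but they summed to only 1 and 10 reads in Dnmt1 KO against 10, 1, 4 and 15 in Dicer/Dnmt1 KO. The miRNA markers of ESCs summed to 6678 and 5934 reads in Dnmt1 KO and to 84, 26, 173 and 176 reads in Dicer/Dnmt1 KO. The 3 neural and 3 muscle miRNA markers that the table holds were at 0 in all 6 libraries.

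The sequences that the results turn on are printed from RefSeq (GRCm38.p6), 5′ to 3′, with the seed in capitals. A RefSeq mature sequence was found in the interval of 115 of the 132 miRNAs tested. The table counted whole hairpins, so which arm gave the reads is not known and the arm named in RefSeq for the shared seed is shown. The first set holds the seed AUUGCAC, whose 5 tested features were all called lower.
miR-92a-3p: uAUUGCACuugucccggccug
miR-92b-3p: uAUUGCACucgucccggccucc
miR-25-3p: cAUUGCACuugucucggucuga
miR-363-3p: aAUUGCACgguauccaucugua
The second set holds the ESC seeds AAGUGCU and AAAGUGC, which are the same letters displaced by 1 base and join the Mir290 and Mir302 clusters to the Mir17-92 cluster and its paralogues.
miR-291a-3p: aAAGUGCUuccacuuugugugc
miR-294-3p: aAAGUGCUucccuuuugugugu
miR-295-3p: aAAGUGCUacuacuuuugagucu
miR-302d-3p: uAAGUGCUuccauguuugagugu
miR-17-5p: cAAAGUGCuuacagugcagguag
miR-93-5p: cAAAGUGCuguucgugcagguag
The third set holds the miRNA with the most reads in Dnmt1 KO (miR-182), the one with the largest fitted fall (miR-191) and the most abundant imprinted one (miR-127).
miR-182-5p: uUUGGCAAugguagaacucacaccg
miR-191-5p: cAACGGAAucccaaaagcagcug
miR-127-3p: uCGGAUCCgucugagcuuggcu
The last set holds 2 seeds whose tested members were not called, GAGGUAG of the let-7 family and ACCCGUA of miR-99b and miR-100.
let-7i-5p: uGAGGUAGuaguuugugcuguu
let-7d-5p: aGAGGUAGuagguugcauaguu
let-7e-5p: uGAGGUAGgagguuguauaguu
miR-99b-5p: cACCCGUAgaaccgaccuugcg
miR-100-5p: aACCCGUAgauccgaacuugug

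On build NCBIM37, which the deposited table used, the Mir182 hairpin is annotated at chr6:30115918-30115992 (- strand), next to Mir183 at chr6:30119668-30119737 (- strand) and Mir96 at chr6:30119446-30119551 (- strand). The Mir290 cluster runs on chromosome 7 from Mir290 at chr7:3218627-3218709 (+ strand) to Mir295 at chr7:3220774-3220842 (+ strand). Mir92-1 is annotated at chr14:115443649-115443728 (+ strand) inside the noncoding gene Mir17hg, and Mir25 at chr5:138606549-138606632 (- strand) inside the protein-coding gene Mcm7. The miR-191 sequence lies in the interval of the clone-named feature CT010508.1, which is annotated at chr9:108470626-108470745 (- strand). Both strands of the interval were searched, so the strand of the feature need not be that of miR-191. Mir127 is annotated at chr12:110831042-110831138 (+ strand), inside Rtl1 in the imprinted Dlk1-Dio3 region.

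The share of counts that fell on miRNAs was several times lower without Dicer, while snoRNAs, ribosomal RNA and fragments of protein-coding genes took larger shares. miRNAs made up 53.3 and 51.3% of the counts in the Dnmt1 KO libraries and 12.1, 6.31, 7.84 and 8.19% in the Dicer/Dnmt1 KO libraries, or 52.3% ± 1.43 (SD, n = 2) against 8.60% ± 2.44 (SD, n = 4). The groups did not overlap, and 1A had the highest of the Dicer/Dnmt1 KO shares. snoRNAs made up 8.30 and 7.67% in Dnmt1 KO against 27.7, 28.0, 31.2 and 28.2% in Dicer/Dnmt1 KO, 7.99% ± 0.446 (SD, n = 2) against 28.8% ± 1.64 (SD, n = 4). These groups did not overlap either, and 2A stood highest. Ribosomal RNA was at 0.134 and 0.178% in Dnmt1 KO against 1.41, 2.67, 2.05 and 1.66% in Dicer/Dnmt1 KO, a ratio of means of 12.5. Protein-coding features were at 23.3 and 22.5% and 40.0, 43.8, 40.2 and 44.3%. These are shares of one total, so a class can take a larger share without more RNA per cell. Mitochondrial RNA was the only class of 9 in which the groups overlapped, at 1.38 and 4.93% and 2.70, 1.69, 2.95 and 1.84%. With 2 against 4 libraries, the exact permutation test (two-sided) cannot go below p = 0.133, which was the value in the other 8 classes (0.15 after Benjamini-Hochberg adjustment over 9 classes), so none of the differences in shares could pass 0.05.

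**Figure D1:**
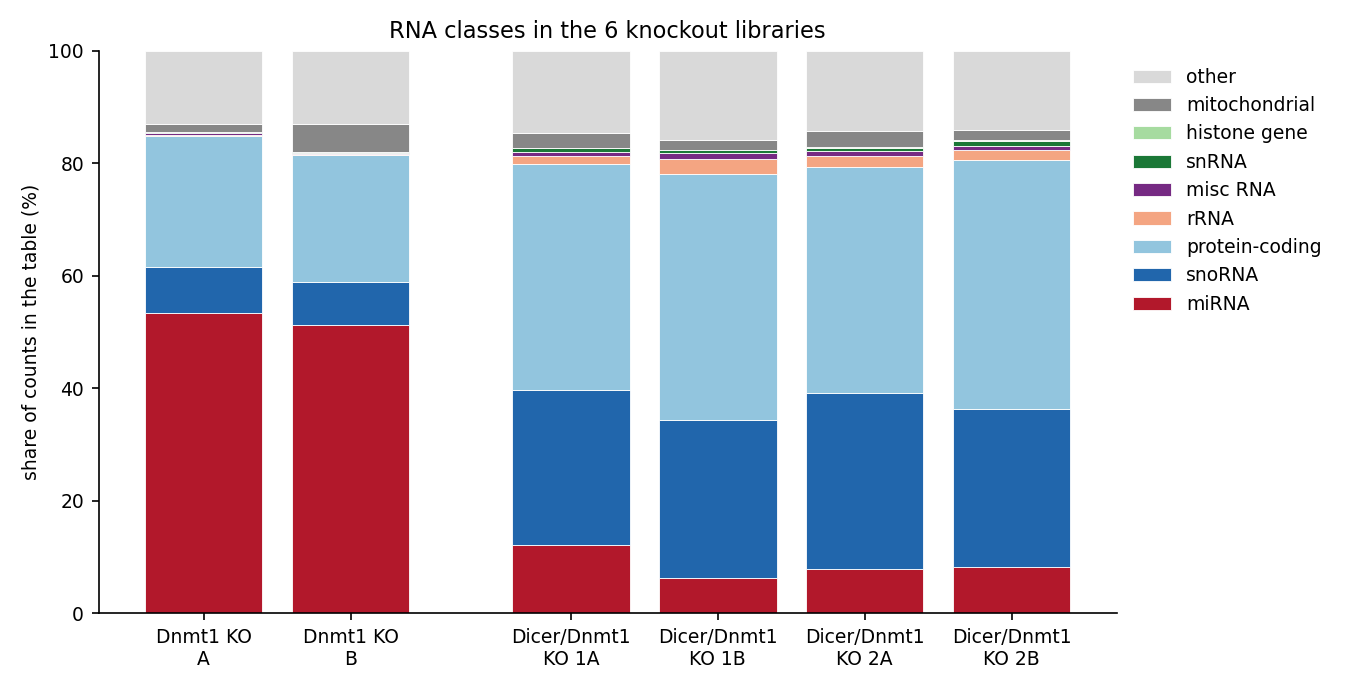
Share of the counts of each library (percent, y axis) that fell on each class of annotated RNA, with 1 stacked bar for each of the 2 Dnmt1 KO and 4 Dicer/Dnmt1 KO libraries and 1 colour per class. The miRNA segment takes more than 51% of the Dnmt1 KO bars and at most 12.1% of the Dicer/Dnmt1 KO bars, and the snoRNA segment at most 8.30% and more than 27%.

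The number of different miRNAs with a read was also lower. It was 257 and 265 in Dnmt1 KO against 121, 64, 174 and 168 in Dicer/Dnmt1 KO, with no overlap, whereas snoRNAs with a read numbered 213 and 221 against 201, 174, 249 and 257, where the groups overlapped. Library 2B, the deepest of the 6, held fewer different miRNAs than library A with 67678 reads, and more snoRNAs. In all, 323 of 1573 annotated miRNAs had a read in the 6 libraries.

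Among single features, nearly all changes were falls, and 99 of the 148 falls were miRNAs and 43 were features that hold one. Of 683 features with enough reads to be tested, 156 were called (22.8%, limma, Benjamini-Hochberg adjusted p under 0.05), 148 lower (21.7%) and 8 higher (1.17%) in Dicer/Dnmt1 KO. Among the 132 tested miRNAs, 99 were called lower, 0 were called higher and 33 were not called, and at an unadjusted p under 0.05 the counts were 107 and 1. With voom weights in limma, 103 miRNAs were lower and 0 higher. The lower share was thus 75% of miRNAs beside 21.7% of all features. The miRNA count of 0 higher became 1 when libraries were scaled by their reads alone, when the wild-type libraries were left out and when the wild-type pair titled E14 2 was left out. On the log2(RPM + 10) scale the median change was -4.18 over miRNAs, 0.38 over 167 snoRNAs and -0.16 over all features. A log2 change understates the fall of a miRNA with few reads, and 50 tested miRNAs had 3 reads or fewer in every Dicer/Dnmt1 KO library. With those at the limit that 3 reads per library allow, the miRNA median was -2.30. That limit was taken in RPM before scaling and the other miRNAs kept scaled changes, so -2.30 and -4.18 are not strictly comparable. In RPM, before any scaling, the groups did not overlap for 103 miRNAs in the lower direction, where 22.3% of all features did so, and for 1 in the higher direction, where 33.7% of all features did so. After scaling by trimmed means (TMM), 27.7% of all features did not overlap in the lower and 11.9% in the higher direction. Of the 99 miRNAs called lower, 69 were called in each of the 6 fits that left out 1 knockout library.

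**Figure D2:**
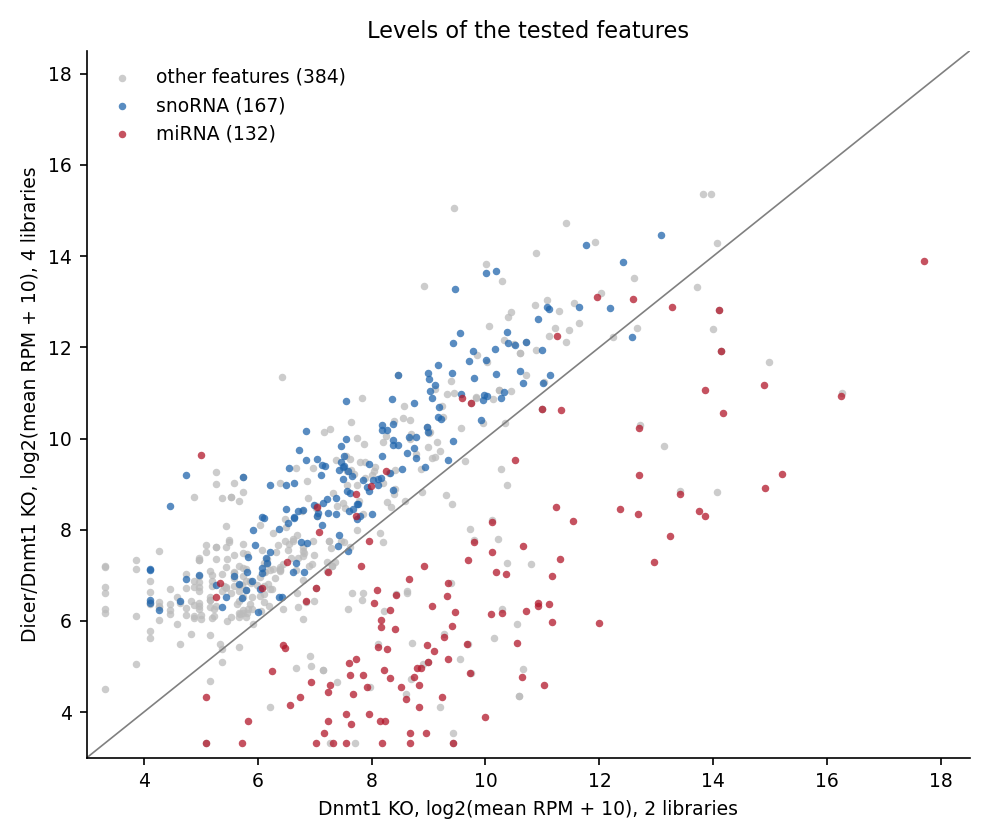
Mean level of each of the 683 tested features in Dnmt1 KO (x axis) and Dicer/Dnmt1 KO (y axis), each as log2(mean RPM + 10), with 1 point per feature, the diagonal of equal levels as a line, and miRNAs, snoRNAs and other features in different colours. miRNAs lie far below the diagonal and snoRNAs along and above it. The points are RPM before TMM scaling. Scaled by library reads alone, the median change was -3.55 over miRNAs and 1.35 over snoRNAs, against -4.18 and 0.38 after TMM scaling.

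Of the 10 miRNAs with the highest mean RPM in Dnmt1 KO, 9 were called lower and the tenth, Mir183, was not. What was left of the 9 ranged from 1.54% of the Dnmt1 KO mean (Mir292) to 41.3% (Mir21). Percentages left, here and below, are of mean RPM before TMM scaling, whereas log2 changes and calls are scaled. Mir182, from a cluster known from sensory cells and stem cells, stood at 210704 and 213871 RPM in Dnmt1 KO and at 43159, 10448, 4462 and 2449 RPM in Dicer/Dnmt1 KO. The groups did not overlap, but 1A held far more than the other 3 libraries. The change was -5.68 (SE 1.27, limma adjusted p = 0.00355). Mir92-1, of the Mir17-92 cluster that drives proliferation, stood at 77603 and 77429.9 RPM and 3675, 689, 2696 and 657 RPM. Its change was -6.73 (SE 0.66, limma adjusted p = 7.11e-06), and its reads cannot be told from those of the identical mature miRNA of Mir92-2. Mir292, of the ESC cluster Mir290, stood at 52129 and 23586 RPM and 1021, 574, 457 and 285 RPM, and fell by 7.03 on the log2 scale (SE 0.49, limma adjusted p = 1.24e-06).

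miR-191 had the largest fitted fall of all tested features on the log2(RPM + 10) scale, a rank that depended on library 1B. CT010508.1, the feature that holds its sequence, stood at 33718 and 27628 RPM in Dnmt1 KO and at 1266, 0, 520.3 and 119 RPM in Dicer/Dnmt1 KO, a change of -8.24 (SE 1.71, limma adjusted p = 0.00204). Library 1A was again the highest of its group, and 1B, the shallowest, had no read of it. Without 1B its change was -6.98, smaller than that of Mir192 (-7.13). By the mean RPM left it was not the lowest, with 1.55% left against 0.685% for Mir192 and 0.343% for Mir141. However, Mir192 and Mir141 had at most 1 read in each Dicer/Dnmt1 KO library, under the limit of 3 reads per library. Their rank against miR-191 is therefore not measured. Mir25 of the Mir106b-25 cluster stood at 13934 and 15594 RPM and 449, 115, 520.3 and 133 RPM, and Mir295 of the Mir290 cluster at 23553 and 13391 RPM and 1715, 1607, 1939 and 690.1 RPM. Both were called lower, with changes of -6.82 (SE 0.68) and -4.68 (SE 0.53). Mir192, an endoderm miRNA also induced by p53, was next after CT010508.1 in the size of its fitted fall, at 1965 and 2165 RPM and 40.8, 0, 15.8 and 0 RPM (-7.42, SE 1.15). It was followed by Mir92b, which has the AUUGCAC seed, at 2822 and 5344 RPM and 81.7, 0, 94.6 and 33.2 RPM (-7.16, SE 0.98). Mir335, inside the imprinted gene Mest, changed by -6.74 (SE 0.75) and Mir291a by -6.91 (SE 0.67).

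A shallower fall was measured for Mir22 and Mir21, both abundant in fibroblasts and other differentiated cells. Mir22 stood at 15559 and 20352 RPM in Dnmt1 KO and at 3103, 3904, 6827 and 1593 RPM in Dicer/Dnmt1 KO, a change of -3.40 (SE 0.58, limma adjusted p = 0.000436). Mir21 stood at 16327 and 18614 RPM and 5921, 7922, 11099 and 3942 RPM, a change of -2.39 (SE 0.44, limma adjusted p = 0.000828). The Mir21 call was lost without Dnmt1 KO library B (adjusted p = 0.0527). Neither miRNA overlapped between groups, and their highest Dicer/Dnmt1 KO library was 2A, not 1A as for Mir182.

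**Figure D3:**
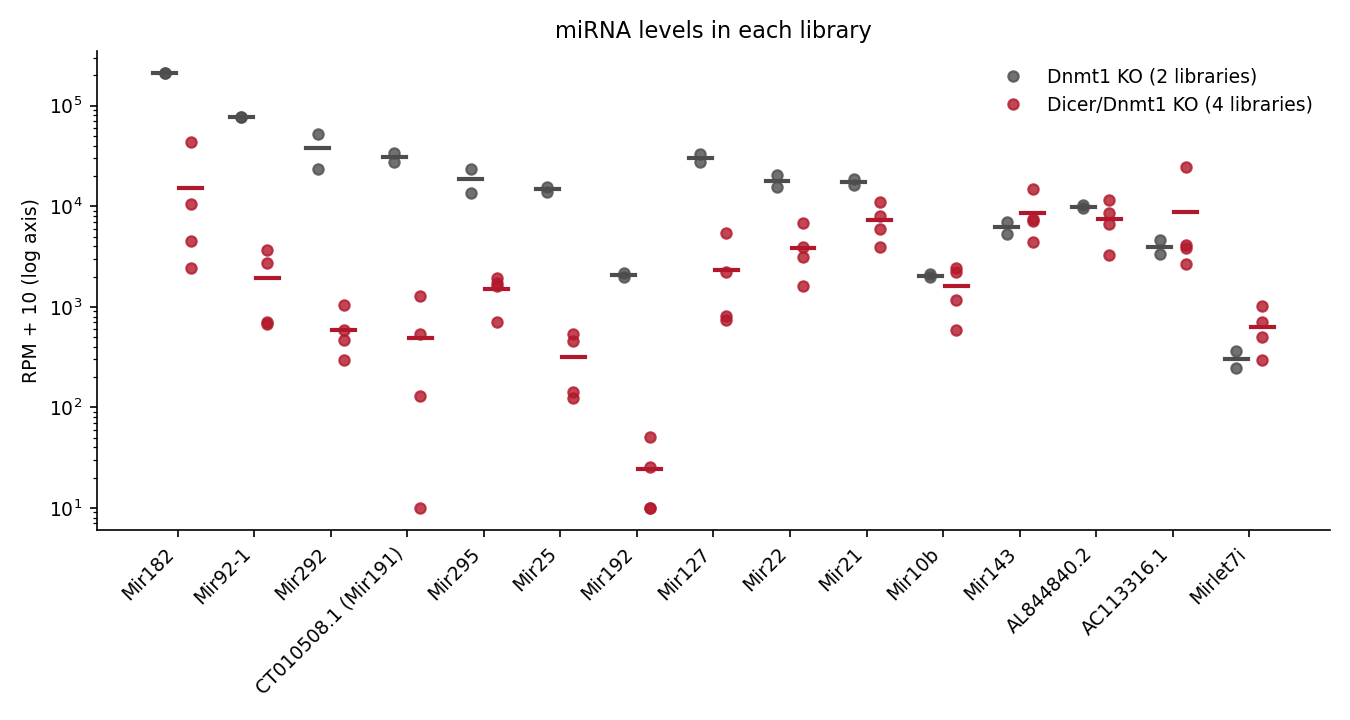
Level of 15 of the miRNAs described in each knockout library (RPM + 10, logarithmic y axis), with 1 point per library and a bar at the mean of each group. Mir182, Mir92-1 and Mir292 are at 23586 RPM or more in Dnmt1 KO and lower in all 4 Dicer/Dnmt1 KO libraries, whereas the points of Mir143 and AC113316.1 overlap between the groups.

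Most tested members of the ESC clusters were called lower, though many had few reads in Dicer/Dnmt1 KO. All 7 members of the Mir290 cluster were called lower, with a median change of -6.43, and their summed level went from 99190.3 and 55619 RPM to 3471, 2985, 2791 and 1201 RPM, which left 3.37% of the Dnmt1 KO mean. Of the 6 members of the Mir17-92 cluster, 5 were tested and called lower (median -4.17), and 2.59% of the summed level was left. That sum was mostly Mir92-1, with 77516 of 78540 RPM in Dnmt1 KO. In this cluster 4 of the 5 tested members had 3 reads or fewer in every Dicer/Dnmt1 KO library. With those at the limit of 3 reads per library, the median was -0.926. Without Dnmt1 KO library A the calls of Mir290, Mir18 and Mir20a were lost (adjusted p = 0.0544, 0.214 and 0.0842), and that of Mir20a was also lost without library B (0.0806). The Mir106b-25 cluster had 3 of 3 lower and 2.27% left, and the Mir106a-363 cluster 4 of 5 lower and 8.50% left, or 4.75% without library 1A. Of the 6819 RPM of the Mir106a-363 cluster in Dnmt1 KO, 6585 were Mir92-2, whose mature reads cannot be told from those of Mir92-1. Here too 4 of the 5 tested members of the cluster had 3 reads or fewer in every Dicer/Dnmt1 KO library. Its member Mir18b kept the call in 1 of the 6 fits that left out a knockout library (adjusted p = 0.0579 to 0.251 in the other 5). Mir106a was the member not called, at 24.1 RPM in Dnmt1 KO and 0 reads in Dicer/Dnmt1 KO, where its mean in both groups was under the limit that 3 reads per library allow. The Mir302 cluster, known for primed pluripotency, was already low in Dnmt1 KO, at a sum of 458 and 307 RPM. Its 3 tested members had a median of -2.55 and 2 were called lower, Mir302a and Mir302d. Mir302a kept the call only in the fit without 1A, and Mir302d lost it without Dnmt1 KO library A (adjusted p = 0.0778). The cluster's sum in Dicer/Dnmt1 KO was 327, 0, 15.8 and 19.9 RPM, so library 1A lay within the Dnmt1 KO range and the other libraries below it.

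Mir93, a member of the Mir106b-25 cluster taken as a check of Dicer activity, was among those called lower. It had 1936 and 1942 RPM in Dnmt1 KO and 81.7, 115, 63.1 and 19.9 RPM in Dicer/Dnmt1 KO, which are only 1 to 4 reads per library in the latter, a change of -5.72 (SE 0.62, limma adjusted p = 1.63e-05). Read by seed, AUUGCAC was called lower in 5 of 5 tested features (median -6.73), AAAGUGC in 5 of 6 (median -4.12) and AAGUGCU in 4 of 5 (median -4.68). The exceptions, Mir106a and Mir302b, had the lowest Dnmt1 KO levels of their seed. Of 25 seeds held by 2 or more tested miRNAs, 14 had all members lower and 11 had a member not called.

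Other families were lower with few exceptions. The Mir200 family, which keeps cells epithelial, had 4 of 4 tested members lower, with a median of -5.50. Of its summed level 0.581% was left, the least of the lists examined, or 0.250% without library 2B. All 4 had 3 reads or fewer in every Dicer/Dnmt1 KO library, so this percentage and its rank are not measured. With the 4 at the limit of 3 reads per library, the median was -1.46. Mir200b went from 975 and 1041 RPM to 0, 0, 0 and 19.9 RPM (-6.69, SE 0.59). Mir429 had no read in Dicer/Dnmt1 KO, which at the limit of 3 reads per library is at least 2.09-fold lower. The Mir183 cluster had 2 of 3 lower, with 7.58% left, or 2.92% without library 1A. The exception, Mir183, stood at 18012 and 11709 RPM and 5921, 689, 1372 and 491 RPM, a change of -4.49 (SE 1.57, limma adjusted p = 0.0571), with library 1A far above the other 3, and it was called under 7 of the alternatives, among them the fit without 1A (adjusted p = 0.0359). The Mir130 and Mir301 family and the Mir23-27-24 clusters each had 3 of 3 tested members lower, with medians of -5.13 and -3.77.

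In further lists some members did not pass the test. Mir30 had 3 of 5 lower (median -4.44), with Mir30b and Mir30c-1 not called, and Mir181 had 2 of 3 lower (median -5.67). The Mir15/16 list, which restrains the cell cycle, had 1 of 3 tested members lower, Mir15b, whose call was lost without Dnmt1 KO library A (adjusted p = 0.0573). The others, AC154660.2 (RefSeq Mir15a, -2.28, SE 1.02, limma adjusted p = 0.163) and AC154660.1 (miR-16), were not called. AC154660.1 stood at 325 and 297 RPM and 122, 0, 94.6 and 46.4 RPM with no overlap (-3.33, SE 1.18, limma adjusted p = 0.0611), and it was called lower under 6 of the alternatives, with voom among them (adjusted p = 0.000886). Mir26b, the only tested Mir26 member, fell by 5.28 on the log2 scale (SE 0.70). Mir148a, which like the Mir29 family targets DNA methyltransferases, stood at 11850.2 and 15659 RPM and 408, 459, 331 and 113 RPM (-6.50, SE 0.68). Mir29a was not called, at 207 and 195 RPM and 204, 115, 804 and 92.9 RPM (-0.91, SE 0.80, limma adjusted p = 0.578), and its groups overlapped.

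**Figure D4:**
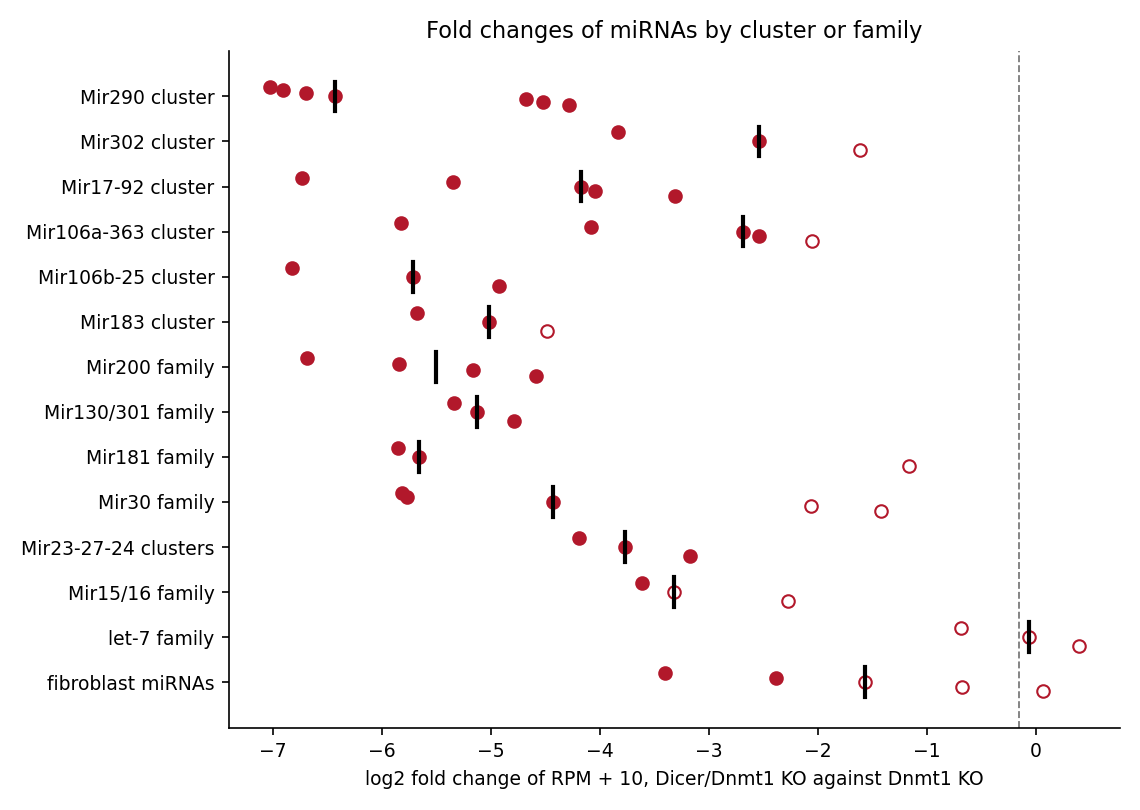
Change between Dicer/Dnmt1 KO and Dnmt1 KO for each tested member of the miRNA lists (log2 fold change on the log2(RPM + 10) scale, x axis), with 1 point per miRNA, filled where called lower and open where not, a vertical bar at the median of each list and a dashed line at the median of all features, -0.16. Members of the Mir290, Mir17-92, Mir106b-25, Mir200, Mir130 and Mir301, and Mir23-27-24 lists are all called lower, and the let-7 points lie on both sides of 0, with a median of -0.06.

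Most miRNAs reach Dicer through Drosha, but a few do not, and one mouse miRNA does not need Dicer. Mir320 and Mir484, whose precursors are made without Drosha and cut by Dicer, were both called lower. Mir320 went from 576 and 502 RPM to 0, 0, 94.6 and 26.5 RPM (-5.02, SE 0.82) and Mir484 from 281 and 269 RPM to 0, 0, 15.8 and 0 RPM (-4.99, SE 0.71). Together 7.16% of their summed level was left, or 2.85% without library 2A. Mir451, which is matured by Argonaute2 in place of Dicer in red blood cell precursors, had 1 read in 1 library (2A) and was not tested, so it gives no measure of Dicer-independent processing in these cells.

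In the imprinted Dlk1-Dio3 region of chromosome 12, the maternally expressed noncoding transcripts carry both miRNAs and snoRNAs. Of its 14 tested miRNAs, 12 were called lower, with a median of -4.76, while 0 of 5 tested snoRNAs were called by limma (also 0 at an unadjusted p under 0.05 and 0 with voom), with a median of -0.00133 beside 0.38 over all snoRNAs. The difference between the 2 kinds of RNA was not tested. Mir127 stood at 32728 and 27591 RPM in Dnmt1 KO and at 2205, 804, 5471 and 723 RPM in Dicer/Dnmt1 KO (-5.21, SE 1.21, limma adjusted p = 0.00479), with library 2A the highest of its group and no overlap. Mir411, Mir541 and Mir410 changed by -5.73 (SE 0.83), -5.80 (SE 1.19) and -4.03 (SE 1.06), and the call of Mir410 was lost without Dnmt1 KO library B (adjusted p = 0.0562). Mir431 and Mir434 were not called. Among the long transcripts of the region, Rian, the host of the snoRNAs, stood at 798 and 1162 RPM and 1837, 689, 1356 and 1241 RPM and was not called (-0.68, SE 0.65, limma adjusted p = 0.618). Mirg, the host of a miRNA cluster, changed by -4.47 (SE 0.96, limma adjusted p = 0.00262), and Rtl1 by -4.74 (SE 1.08, limma adjusted p = 0.00395). The miRNAs inside Mirg held 1585 of its 1585 Dnmt1 KO reads, so its call rests on their reads. Rtl1 is a retrotransposon-derived gene with miRNAs on its opposite strand, and since counting did not separate strands its reads hold those of Mir127 and its neighbours.

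The miRNA reads that remained without Dicer had another composition. All miRNAs together went from a mean of 639141 RPM to 86372 RPM, which is 13.5% of the Dnmt1 KO mean. In RPM before TMM scaling, the 99 features called lower kept 7.04% of their summed level and the 33 not called kept 91.4%. By library reads alone the median change of all features was 0.75, against -0.16 after TMM scaling, so scaled percentages would be lower. The features not called supplied 7.49% of miRNA counts in Dnmt1 KO against 53.2% in Dicer/Dnmt1 KO. The split by call follows from the same values, so it is a description. AC113316.1 had the highest Dicer/Dnmt1 KO mean among those not called. It stood at 3325 and 4572 RPM in Dnmt1 KO and 4083, 2641, 3815 and 24837 RPM in Dicer/Dnmt1 KO (-0.48, SE 1.13, limma adjusted p = 0.861), and only library 2B lay above the Dnmt1 KO range.

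A first group among them were 7 tested features that the annotation types as miRNA under clone names, or as mmu-mir-689-2, and for which no mature sequence was matched. This set was formed after the values were seen. Its members summed to 16697 and 19227 RPM in Dnmt1 KO and 20987, 17910.4, 14457 and 42926 RPM in Dicer/Dnmt1 KO. They supplied 2.56 and 3.07% of miRNA counts in Dnmt1 KO against 18.4, 27.8, 14.9 and 61.4% in Dicer/Dnmt1 KO. Library 2B had the largest share, while in RPM 2A was below both Dnmt1 KO libraries. Of these 7, 1 was called lower, and their median change was -0.48. AL844840.2 stood at 9501 and 10343 RPM and 8575, 6659, 3248 and 11626 RPM, and AC122337.1 at 2453 and 2388 RPM and 6819, 5396, 5282 and 1858 RPM, neither of them called (-1.55, SE 0.79 and -0.17 (SE 0.71)). AC127323.1, chosen after its values were seen as the only miRNA whose RPM groups did not overlap in the higher direction, stood at 44.3 and 0 RPM and 204, 1033, 804 and 1102 RPM (4.08, SE 1.62, limma adjusted p = 0.102). It was called higher with the knockout libraries only, with library reads alone and without the wild-type pair E14 2 (adjusted p = 0.0316, 0.0374 and 0.00164).

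miRNAs known from fibroblasts were another group. ESCs can be grown on a layer of feeder fibroblasts, and the study's methods allow growth with or without feeders. The fibroblast miRNAs summed to 41313 and 49207 RPM in Dnmt1 KO and 24499, 22273, 40802 and 12541 RPM in Dicer/Dnmt1 KO. In RPM before scaling 55.3% was left, and 2 of the 5 tested (Mir21 and Mir22) were called lower. Only 2A came close to the Dnmt1 KO libraries. Mir143, abundant in fibroblasts and smooth muscle, stood at 5319 and 6961 RPM and 7186, 7463, 14883 and 4393 RPM (-0.68, SE 0.74, limma adjusted p = 0.67). Mir10a and Mir10b, from the Hox clusters, were not called either, at 1936 and 1171 RPM against 6002, 2296, 5376 and 1400.1 RPM (0.07, SE 0.85) and 2098 and 1961 RPM against 2205, 574, 2396 and 1161 RPM (-1.57, SE 1.05). The groups overlapped for all of Mir143, Mir10a and Mir10b. Of this list, Mir10a and both Mir196a entries are typed as another class, and the other 9 made up, as shares of miRNA counts, 6.03 and 7.67% in Dnmt1 KO against 16.2, 30.8, 36.5 and 15.9% in Dicer/Dnmt1 KO.

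Of the 9 feeder miRNA markers in the table, 8 had a read and Mir199a-1 was at 0. They summed to 2794 and 5289 reads in Dnmt1 KO and to 600, 193, 2585 and 1886 reads in Dicer/Dnmt1 KO. In Dnmt1 KO most of this sum was Mir21 (16327 and 18614 RPM) and Mir22 (15559 and 20352 RPM). Other markers were near the floor. Mir145 stood at 29.6 and 46.5 RPM in Dnmt1 KO and 0, 0, 63.1 and 19.9 RPM in Dicer/Dnmt1 KO. Mir214 stood at 14.8 and 46.5 RPM and 81.7, 0, 94.6 and 6.64 RPM, and Mir199a-2 had reads in 2A only (15.8 RPM). Of the 6 feeder genes, 5 had a read and Thy1 was at 0, with sums of 1 and 8 reads in Dnmt1 KO and 0, 1, 9 and 41 reads in Dicer/Dnmt1 KO. The part of feeder cells in the miRNAs that did not fall was not tested. In such bulk libraries, fewer cells of a type and less RNA per cell cannot be told apart.

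The let-7 family, which accumulates as cells differentiate and is blocked by Lin28 in ESCs, was low in both groups. Of its 3 tested members 0 were called by limma in either direction (also 0 at an unadjusted p under 0.05 and 0 with voom), and the family's sum was 709 and 753 RPM in Dnmt1 KO and 776, 2296, 2049.6 and 524 RPM in Dicer/Dnmt1 KO. Mirlet7i stood at 236 and 353 RPM and 490.0, 689, 1009 and 285 RPM (-0.06, SE 0.78, limma adjusted p = 0.968), where 2B lay within the Dnmt1 KO range and the other 3 above it in RPM. The sign of its change turned with libraries scaled by their reads alone and without Dnmt1 KO library B or Dicer/Dnmt1 KO library 1A or 2B. Mirlet7d and AC165361.1 (RefSeq Mirlet7e) changed by 0.40 (SE 0.78) and -0.69 (SE 1.03). The members of seed ACCCGUA were not called either, with CT009696.2 (miR-100) at 0.03 (SE 0.67) and Mir99b at -3.39 (SE 1.63, limma adjusted p = 0.205), where 1B had no read and 2A lay above both Dnmt1 KO libraries. Without 2A, Mir99b was called lower (adjusted p = 0.0423). A p that misses the threshold does not show that the levels were equal.

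**Figure D5:**
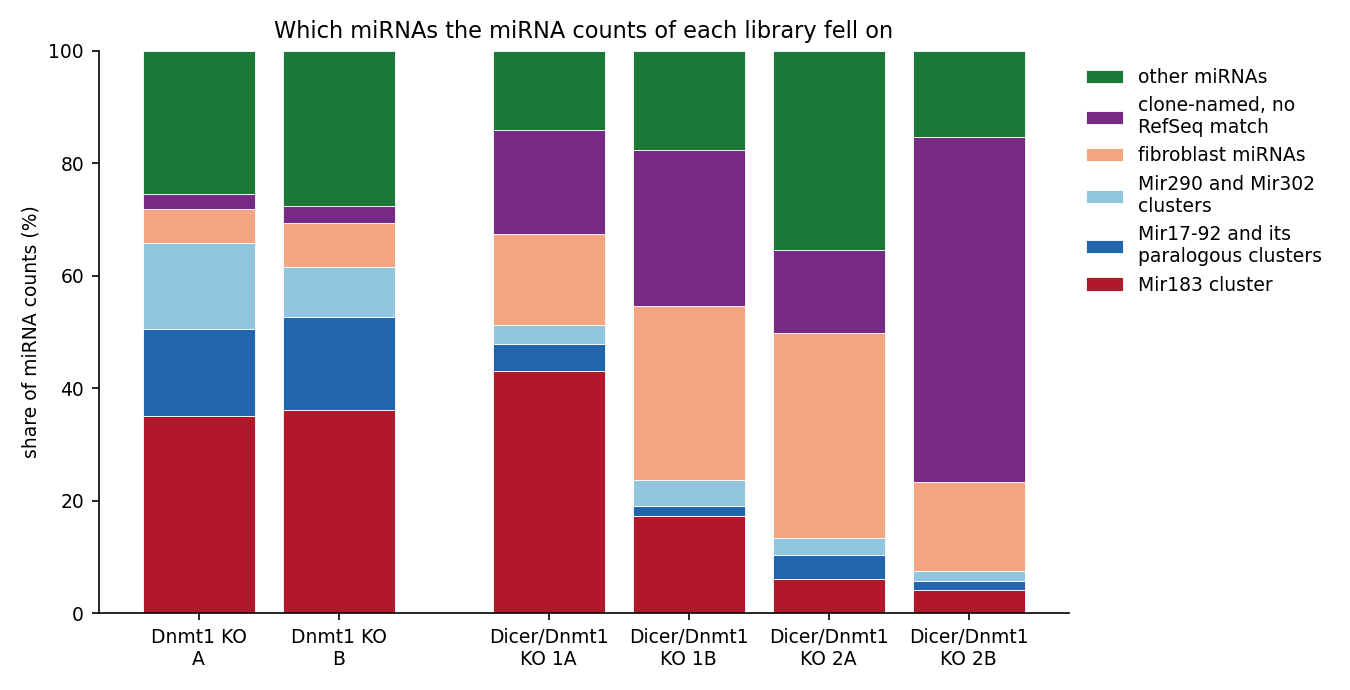
Composition of the miRNA counts of each knockout library (percent of miRNA counts, y axis) by group of miRNAs, 1 stacked bar per library. The clusters Mir290 and Mir302, Mir17-92 with its paralogues and Mir183 take 15.3%, 15.5% and 35.1% of the bar of Dnmt1 KO A, and fibroblast and clone-named miRNAs take 16.2% and 18.4% of the bar of 1A and 15.9% and 61.4% of that of 2B. The clone-named group also holds mmu-mir-689-2.

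Features other than miRNAs were lower mainly where they hold a miRNA. Of 49 such features called lower, 43 hold an annotated miRNA, and in 42 of these the miRNAs inside accounted for at least 90% of the Dnmt1 KO reads, so these calls rest on the same reads as those of the miRNAs. Among 551 tested features that are not miRNAs, 55 hold a tested miRNA, of which 42 were lower (median -3.87), and 496 hold none, of which 7 were lower and 8 higher (median 0.24). Examples are Mir17hg (-6.59, SE 0.61), the host of Mir17-92, Mcm7 (-6.39, SE 0.58), a helicase subunit of the replication fork that hosts Mir106b-25, and Mest (-6.58, SE 0.77). Ttll10 and Gm13648, which share the reads of Mir200a, Mir200b and Mir429, stood at 1359 and 1691 RPM and 0, 0, 15.8 and 26.5 RPM. Egfl7, an endothelial gene that hosts Mir126, had 694 and 659.8 RPM in Dnmt1 KO and no read in Dicer/Dnmt1 KO, at least 5.07-fold lower.

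The 6 lower features without an annotated miRNA were Ccdc30, BX470216.1, Dnase1, Gm15879, Ror1 and Arhgap10, which are named here because of their values. Ccdc30 stood at 177 and 223 RPM in Dnmt1 KO and at 0 in all 4 Dicer/Dnmt1 KO libraries (-4.79, SE 0.82, limma adjusted p = 0.000464), which is at least 1.50-fold lower. BX470216.1, an RNA of no stated function annotated inside Ccdc30, had 148 and 139 RPM and 0, so at least 1.08-fold lower, and its 10 and 15 reads are counted among the 12 and 24 of Ccdc30. Dnase1, which cuts DNA outside cells, and the antisense gene Gm15879 overlap and shared 9 and 14 reads in Dnmt1 KO against 2, 0, 0 and 0 in Dicer/Dnmt1 KO. Ror1, a receptor of Wnt5a, changed by -2.73 (SE 0.88, limma adjusted p = 0.038) and Arhgap10, a GTPase activator, by -2.65 (SE 0.82, limma adjusted p = 0.0312). Without Dnmt1 KO library A these last 4 calls were lost (adjusted p = 0.131, 0.128, 0.274 and 0.138), and likewise without B (0.148, 0.145, 0.0921 and 0.154). Those of Dnase1, Gm15879 and Ror1 were also lost without 1B and without 2B.

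A total of 8 features were called higher, from several classes of RNA. The 5S ribosomal RNA copies n-R5s194 and n-R5s2 were 2 of them. n-R5s194 stood at 59.1 and 92.9 RPM in Dnmt1 KO and 1225, 2755, 4288 and 2117 RPM in Dicer/Dnmt1 KO (3.84, SE 1.01, limma adjusted p = 0.0105), and n-R5s2 at 798 and 1245 RPM and 7962, 21584, 18383 and 9801 RPM (2.71, SE 0.81, limma adjusted p = 0.0258). Neither overlapped, but 5S copies are near-identical and how reads with several positions were placed is not stated. Acsl6, a fatty acid CoA ligase, stood at 990.0 and 390.3 RPM and 6125, 95982, 24942 and 9064 RPM (3.91, SE 1.16, limma adjusted p = 0.0242), with library 1B the highest. Ankrd44, a protein with ankyrin repeats, had no read in Dnmt1 KO and 40.8, 229.6, 189 and 86.3 RPM in Dicer/Dnmt1 KO (3.10, SE 1.04, limma adjusted p = 0.047), at least 3.78-fold higher. Snord85, a box C/D snoRNA, stood at 73.9 and 55.8 RPM and 572, 689, 457 and 252 RPM (1.72, SE 0.46, limma adjusted p = 0.0113). Also called were Idh2, a mitochondrial isocitrate dehydrogenase (2.60, SE 0.83), and SNORA76 (2.29, SE 0.72). Each of the 8 was called in 1 to 4 of the 6 fits that left out a knockout library. The count of higher calls was 1 without Dnmt1 KO library A (SNORA76), 1 without B (Idh2), 14 without 1A and 6 without 1B, 2A or 2B in turn. Without the wild-type pair E14 2, 68 features were called higher, 29 of them snoRNAs and 28 protein-coding.

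snoRNAs took a larger share of counts, but few single snoRNAs passed the test. Of 167 tested, 2 were called higher and 0 lower (8 and 0 at an unadjusted p under 0.05, and 2 and 0 with voom). In RPM, the groups did not overlap in the higher direction for 103 of them, where 33.7% of all features did so, and after TMM scaling for 33, beside 11.9%. Box C/D snoRNAs had a median of 0.46 (115 tested) and H/ACA snoRNAs a median of 0.22 (24 tested). Snord68, taken as a Dicer-independent control, stood at 177 and 167 RPM and 939, 574, 993 and 604 RPM, so its RPM groups did not overlap, but its scaled change was 1.08 (SE 0.61, limma adjusted p = 0.307). Without the wild-type pair E14 2 it was called higher (1.42, adjusted p = 0.0137). The snoRNA median was 1.35 with libraries scaled by their reads alone and -0.0863 with factors from snoRNAs and snRNAs, so the direction for this class depended on the scaling.

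The other structural RNAs were not called beyond the 5S copies. Of 10 tested ribosomal RNA features, 2 were higher and the median was 1.55, and 0 of 13 snRNAs, which build the spliceosome, 0 of 5 histone genes and 0 of 20 mitochondrial features were called by limma. At an unadjusted p under 0.05 the counts were 0, 0 and 2, and with voom 0, 0 and 0. The mitochondrial ribosomal RNA mt-Rnr1 stood at 4846 and 27768 RPM in Dnmt1 KO and 3267, 3674, 11178 and 3517 RPM in Dicer/Dnmt1 KO (-2.33, SE 1.20, limma adjusted p = 0.246). Library B held several times the level of A, and A lay within the range of the Dicer/Dnmt1 KO libraries. Dnmt1, the gene absent by label from both groups, had 8 and 9 reads in Dnmt1 KO against 3, 2, 3 and 6 in Dicer/Dnmt1 KO, and was not called (-1.08, SE 0.92, limma adjusted p = 0.558). With voom weights it was called lower (-1.47, adjusted p = 0.0423). It was the only gene of the miRNA pathway list with enough reads to be tested.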

How the data were processed

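Small RNA-seq libraries were deposited as 1 table. Reads had been trimmed by the authors (labels and methods of the study) with Trim Galore 0.3.5, filtered to the lengths of Dicer products, mapped with Bowtie2 2.2.6 to NCBIM37 and counted over annotated features in SeqMonk. The deposited values were log2 RPM relative to library reads, in which a count of 0 stands as the value of 0.9 read. Whole reads were recovered for 100% of the values (within 0.02 of a whole number). A further 89 value columns belong to no sample and were not used. Strands were not separated, reads inside a host gene counted for host and miRNA, and how reads with several positions were placed is not stated.

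Groups came from the genotype labels. Recovered reads of all 12 libraries were scaled by trimmed means of log ratios (30% of log ratios and 5% of abundances trimmed), taken to log2(RPM + 10) and fitted with limma 3.58.1 with a mean-variance trend (R 4.3.3) over 3 groups, where the wild-type libraries add to the spread. The contrast was Dicer/Dnmt1 KO against Dnmt1 KO. Tested features had at least 111.3 RPM in 2 of the 12 libraries and 15 reads in total, and Benjamini-Hochberg adjustment ran over all 683. A count model was not used as the main test because the deposited unit was log2 RPM, and voom on the recovered reads was an alternative. Simulated data on these 683 features had 1 dispersion of 0.17 and no correlation between A and B. There, 88.3% of 77 features lowered by 5 on the log2 scale were called, 69.2% of 65 lowered by 3, 56.9% of 58 raised by 2, and 1.04% of 483 unchanged. Those lowered by 5 had a median fitted change of -3.79. In the real libraries A and B had a correlation of 0.302 and dispersion differed between pairs, so these rates need not hold for them. Gene types came from the GENCODE annotation on NCBIM37. Mature sequences from RefSeq were matched by exact search of both strands of each feature's interval on NCBIM37.

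Features named were the 10 miRNAs highest in Dnmt1 KO and in Dicer/Dnmt1 KO, the 10 deepest falls, the rises, the 5 highest miRNAs not called, up to 4 members of each list by level, and the checks Dicer1, Dnmt1, Mir93 and Snord68. The comparison, the members and the lists were chosen with earlier results of these data known. A and B libraries were compared before averaging. Their counts differed beyond sampling noise, with dispersions of 0.0162, 0.0466 and 0.173 in the 3 knockout pairs, so no pair was taken for repeat deposits of 1 library. This does not show that A and B are separate cultures. Alternatives changed the scaling, the pseudocount (1 or 50), the filter, the libraries, the treatment of A and B and the test. Of the features called higher, 1 is not reported here by name.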

Additional observations from a re-analysis of the deposited data

Results flagged for a closer look

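In 18 of 102 values examined (class shares and named features), 1 of the 4 Dicer/Dnmt1 KO libraries stood apart from the other 3 by Dixon's test. Chance alone gives about 1 in 20 for normally distributed values, and whether these values are so distributed was not tested. That rate does not apply to 9 of the 18, in which the other 3 libraries had no read, so that any read stands apart and is the highest. The separate library was the highest in each of the 18, 1A in 6, 2A in 8 and 2B in 4.

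Library 1A stood apart for the Mir302 cluster, with Mir302a at 122.5 RPM, Mir302b at 40.8 RPM and Mir302d at 163 RPM, for Mir183 at 5921 RPM, and for Gm15879 and Dnase1, which share reads, at 81.7 RPM each. Library 2A stood apart in the snoRNA share (31.2% of counts) and in Mir106b (47.3 RPM), Mir96 (15.8 RPM), Mir29a (804 RPM), Mir484 (15.8 RPM), Mir18b (15.8 RPM), Rtl1 (8025 RPM) and mt-Rnr1 (11180 RPM). Library 2B stood apart in Mir200b (19.9 RPM), Mir141 (6.64 RPM), Mir18 (13.3 RPM) and AC113316.1 (24840 RPM). For 11 of the 18 the separate library held 1 to 3 reads. These were Mir302a, Mir302b, Mir106b, Mir96, Mir141, Mir18, Mir18b, Mir200b, Mir484, Gm15879 and Dnase1.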

How the results depend on the processing

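The total of 156 calls and the 99 lower miRNAs stayed within 1.5 times of these counts under the alternatives run, and the miRNA share stayed lower in each. Leaving out 1 knockout library gave 107 to 165 calls, 73 to 105 lower miRNAs, a miRNA median of -4.42 to -3.95 and 1 to 14 higher features. With the letter A or B as a replicate block there were 154 calls, 7 higher and 147 lower, 98 of them miRNAs, and only the call of Ankrd44 was lost among named features. The letters pair no samples by the labels. Higher calls, 8 in the report, numbered 24 with library reads alone, 4 with factors from snoRNAs and snRNAs, 1 with no filter, 17 with the knockout libraries only, 68 without the E14 2 pair, 1 with A and B summed, which is none of the 8, and 3 with A and B correlated. Of miRNAs, 1 was higher with library reads alone, with the knockout libraries only and without the E14 2 pair. The miRNA median was -5.66 at pseudocount 1, -2.90 at 50 and -1.47 with no filter, where more miRNAs with few reads entered. The snoRNA median was 1.35 with library reads alone, 0.71 without the E14 2 pair and turned to -0.0863 with factors from snoRNAs and snRNAs. Library reads alone moved the median of all features from -0.16 to 0.75 and snoRNA and snRNA factors to -0.60. The split of higher and lower calls with library reads alone was 24 to 127. The mitochondrial share difference of -0.863 points turned to 0.357 over small RNA classes and ranged from -2.64 to 0.913 with libraries left out, and that of other features turned from 1.66 to -1.03 over library reads. The causes were not tested.

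Among named features, 26 of the recomputed values turned sign, all in features not called, 142 lost the call and 19 gained it. With library reads alone the changes of AC113316.1 (0.54), Mir29a (0.0444), Mirlet7i (0.93), AC122337.1 (0.85), Rian (0.33), AC165361.1 (0.28) and Mir143 (0.34) turned positive. With snoRNA and snRNA factors CT009696.2 (-0.33) and Mir10a (-0.41) turned negative, as CT009696.2 did at pseudocount 1 (-0.10) and with voom (-0.50) and Mir10a with the knockout libraries only (-0.0676). At 3 times the minimum Mirlet7i was 0.12 and AC122337.1 0.0235, and without the E14 2 pair 0.28 and 0.18. With libraries left out, Mirlet7i ranged from -0.30 to 0.38, AC122337.1 from -0.33 to 0.0842, AC113316.1 from -1.35 to 0.0165, CT009696.2 from -0.0472 to 0.10, Mir10a from -0.18 to 0.48 and Mirlet7d from -0.22 to 0.66.

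Depth limits the rest. With 8710 reads in the shallowest library, features of few reads could not show a further fall, and a fold below the limit of 3 reads per library is not measured. The 2 Dnmt1 KO libraries form 1 pair.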

Other observations

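Marker miRNAs of other lineages were few and were also lower in reads without Dicer. Endoderm miRNA markers (Mir192, Mir194, Mir215 and Mir375, with Mir122a at 0) summed to 138 and 250 reads in Dnmt1 KO and to 2, 0, 3 and 2 reads in Dicer/Dnmt1 KO. Blood miRNA markers summed to 41 and 90 reads and to 3, 0, 13 and 3 reads. These sums were not tested.

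Among 9 tested features typed as misc_RNA, the noncoding RNAs of housekeeping complexes, 1 was called lower (BX470216.1) and 0 higher, also 0 at an unadjusted p under 0.05 and with voom. RNase_MRP, the RNA of an enzyme that processes ribosomal RNA, chosen after its values were seen, stood at 192 and 186 RPM in Dnmt1 KO and at 979.95, 1148, 2049.6 and 1082 RPM in Dicer/Dnmt1 KO. The groups did not overlap in RPM, but the scaled change of 1.68 (SE 1.35, limma adjusted p = 0.525) was not called.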
